A study of Mus musculus with 12 samples.

Results

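Complexes III and IV of the respiratory chain and the ATP synthase were followed in germinal center B cells through the messenger RNAs of their nuclear-encoded subunits. The members are all gene symbols of the count tables that begin with Uqcr (complex III), with Cox4 to Cox8 (complex IV) or with Atp5 (ATP synthase). These prefixes found 38 of 12212 symbols, of which 8 belong to complex III, 12 to complex IV and 15 to the ATP synthase. The other 3 (Atp5s, Atp5sl and Cox7a2l) carry the prefixes but are not subunits of these complexes. All 38 passed the filter on low counts. Spleens of the lupus-prone mouse hybrid NZBWF1/J supplied the B cells, which the authors sorted into dark zone cells, known to divide and mutate their antibody genes, and light zone cells, known to compete for antigen and for help by T cells. There were 4 groups of 3 libraries, namely dark zone treated, dark zone control, light zone treated and light zone control, with 1000 cells per library. Treated mice received 6 doses each of 200 ug of CTLA4-Ig, a fusion protein that captures CD80 and CD86, and 250 ug of an antibody against CD40L, the ligand that T cells present to CD40 on B cells. The doses ran over 2 weeks, with the first at 18 weeks of age. Control mice were untreated and carried the same strain background; their age is not stated. The labels do not say whether replicates were separate mice, so the p-values below rest on variation among libraries that may in part be technical.

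Complex III passes electrons from ubiquinol to cytochrome c, complex IV passes them on to oxygen, and both pump protons across the inner mitochondrial membrane. The ATP synthase lets the protons flow back through a membrane ring of c subunits, whose turning drives ATP synthesis in the F1 head. All 3 complexes combine a few large catalytic or core proteins with many small accessory proteins, and most of the small ones have very short messenger RNAs. The central catalytic subunits of complex IV, cytochrome b of complex III and subunits a and 8 of the ATP synthase are encoded by mitochondrial DNA; the count tables hold none of these symbols, and they were not analysed here. Germinal center B cells are among the fastest dividing mammalian cells and are known to rely on oxidative phosphorylation.

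Levels are given as CPM, that is, counts scaled to library totals corrected by the TMM method, and differences are log2 ratios of treated over control from edgeR. Library totals were 16032746 to 26837714 counts, so that a floor of 3 counts per library corresponded to 0.0776 to 0.206 CPM, for counting error only. Replicates 1 and 2 of the dark zone treated group and replicate 2 of the light zone treated group stood apart from the other 9 libraries: their TMM factors were 1.35 to 1.44, against 0.815 to 0.988, and the first principal component of all genes, with 30.3% of the variance, put them at 146.6 to 165.7 and the others at -102.9 to 20.4. All 3 are treated libraries, and no control library was like them, so their common feature and the treatment cannot be told apart within the dark zone except through 1 library, dark zone treated replicate 3, and within the light zone except through replicates 1 and 3. All 12 markers of germinal center B cells were detected, and their sum was 7319 to 7835 CPM in the 3 libraries and 9615 to 13500 CPM in the other 9. Of these 12 markers, 4 were lower in all 3 libraries, where 16.7% of all genes were. In the other direction 1, S1pr2, was higher in all 3, at 299 to 328 CPM, against 68.5 to 169 CPM in the other 9. Summed macrophage markers reached 99.7 to 279.9 CPM in the 3 libraries and 8.50 to 68.6 CPM in the other 9, with 7 of 10 markers higher in all 3, among them C1qa, C1qb and C1qc, which were at 0 to 0.361 CPM in the other 9. Of 5 plasma cell markers 1 was lower in all 3, Jchain, at 1109 to 2154 CPM in the 3 and 6206 to 11320 CPM in the other 9, and it made up most of their sum, which was 1310 to 2411 CPM in the 3 and 6431 to 11540 CPM in the other 9. Summed T cell markers were at 19.3 to 61.2 CPM in the 3 and 23.4 to 85.6 CPM in the other 9, with 5 of 9 detected markers higher in all 3 and 1, Trat1, lower in all 3, where 13.7% of all genes were higher and 16.7% lower. Neutrophil markers summed to 1.09 to 55.7 CPM in the 3 and 0 to 8.02 CPM in the other 9, and erythroid markers to 61.3 to 261.3 CPM in the 3 and, in the other 9, to 1388 CPM in dark zone control replicate 1 and 1.57 to 9.24 CPM in the remaining libraries. The part of these cells in the results below was not tested. In bulk libraries fewer cells of a type and less RNA per cell cannot be told apart.

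The members are described by transcript size and include genes with near-identical products. The coding sequences of the subunit c genes and of the smallest F1 subunit are therefore shown first. Subunit c is encoded by Atp5g1, Atp5g2 and Atp5g3, whose mature proteins are identical, so reads from the shared stretch have to be assigned by the bases that differ. The last 228 bases of the coding sequences, stop codon included, differ among the 3 genes at 58 positions, which are in capitals below (GENCODE M21 transcripts of mm10; the genes lie at chr11:96068852-96075670, chr15:102662864-102672352 and chr2:73908447-73911326).
Atp5g1: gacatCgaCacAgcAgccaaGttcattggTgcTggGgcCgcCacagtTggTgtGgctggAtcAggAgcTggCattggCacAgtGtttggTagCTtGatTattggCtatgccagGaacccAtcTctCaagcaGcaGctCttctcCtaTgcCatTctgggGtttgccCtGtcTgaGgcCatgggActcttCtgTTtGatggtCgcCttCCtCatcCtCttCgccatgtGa
Atp5g2: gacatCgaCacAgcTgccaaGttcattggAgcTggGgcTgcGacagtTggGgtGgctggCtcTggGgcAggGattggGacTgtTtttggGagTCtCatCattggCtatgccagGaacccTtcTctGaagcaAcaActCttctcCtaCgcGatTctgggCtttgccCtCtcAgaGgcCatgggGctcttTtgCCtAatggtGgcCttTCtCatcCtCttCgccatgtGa
Atp5g3: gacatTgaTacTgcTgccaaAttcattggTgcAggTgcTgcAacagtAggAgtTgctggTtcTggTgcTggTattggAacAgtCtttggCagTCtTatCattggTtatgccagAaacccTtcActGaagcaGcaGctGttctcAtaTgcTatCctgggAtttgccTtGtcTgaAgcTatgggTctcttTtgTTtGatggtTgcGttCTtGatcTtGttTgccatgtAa
Atp5g1 and Atp5g2 share 85.1% of these bases, Atp5g1 and Atp5g3 79.8%, and Atp5g2 and Atp5g3 78.5%. The longest run of identical bases between any pair of their whole coding sequences was 21, so a read longer than that holds at least 1 distinguishing base when it lies within the coding sequence. Atp5e encodes the epsilon subunit of the F1 head and shows how short the messages of small subunits can be. The gene lies at chr2:174461072-174464105, and its whole coding sequence has 159 bases with the stop codon.
Atp5e: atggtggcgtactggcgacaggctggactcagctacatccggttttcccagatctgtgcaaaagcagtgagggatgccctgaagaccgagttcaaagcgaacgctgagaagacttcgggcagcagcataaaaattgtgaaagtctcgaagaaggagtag
The annotated transcript of Atp5e has 421 bases, against 1916 for Atp5b, the catalytic beta subunit of the same F1 head, with coding lengths of 156 and 1587 bases without the stop codon.

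Per kb of principal transcript, the mean level over the 12 libraries was highest for Cox6a1, at 3063 CPM per kb, Cox8a, at 3049, and Uqcr10, at 2869, and it was 442 for Atp5b, 245 for Atp5a1 and 77.2 for Uqcrc2. Summed over their members, all 3 complexes were at their lowest in the libraries that stood apart. Complex III summed to 2077, 2101 and 5268 CPM in the dark zone treated libraries, against 6932, 8547 and 6409 CPM in the dark zone controls. Complex IV summed to 4535, 4536 and 13420 CPM in the dark zone treated libraries, against 16280, 20220 and 13990 CPM in the dark zone controls, and the ATP synthase to 7376, 8066 and 13080 CPM in the dark zone treated libraries, against 15070, 18050 and 13320 CPM in the dark zone controls. In the dark zone every treated library was thus below every control library for each complex, replicates 1 and 2 by far and replicate 3 by little for complex IV and the ATP synthase. In the light zone, complex III summed to 6698, 1741 and 5176 CPM in the light zone treated libraries, against 7644, 6797 and 6959 CPM in the light zone controls. Complex IV summed to 14660, 3444 and 13570 CPM in the light zone treated libraries, against 16360, 15400 and 15290 CPM in the light zone controls, and the ATP synthase to 14670, 6385 and 14250 CPM in the light zone treated libraries, against 15560, 15200 and 14730 CPM in the light zone controls. Here too every treated library was below every control library in each complex, with replicate 2 far below and replicates 1 and 3 close to the controls, replicate 3 less so for complex III. For complex III this held only with TMM scaling: as a share of all counts it was 0.591% in light zone treated replicate 1, against 0.586% in light zone control replicate 2. The 38 members together took 2.03%, 2.01% and 3.02% of the counts in dark zone treated libraries, against 3.53%, 3.85% and 3.36% in dark zone control libraries, and 3.20%, 1.70% and 2.94% in light zone treated libraries, against 3.51%, 3.24% and 3.32% in light zone control libraries.

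**Figure D1:**
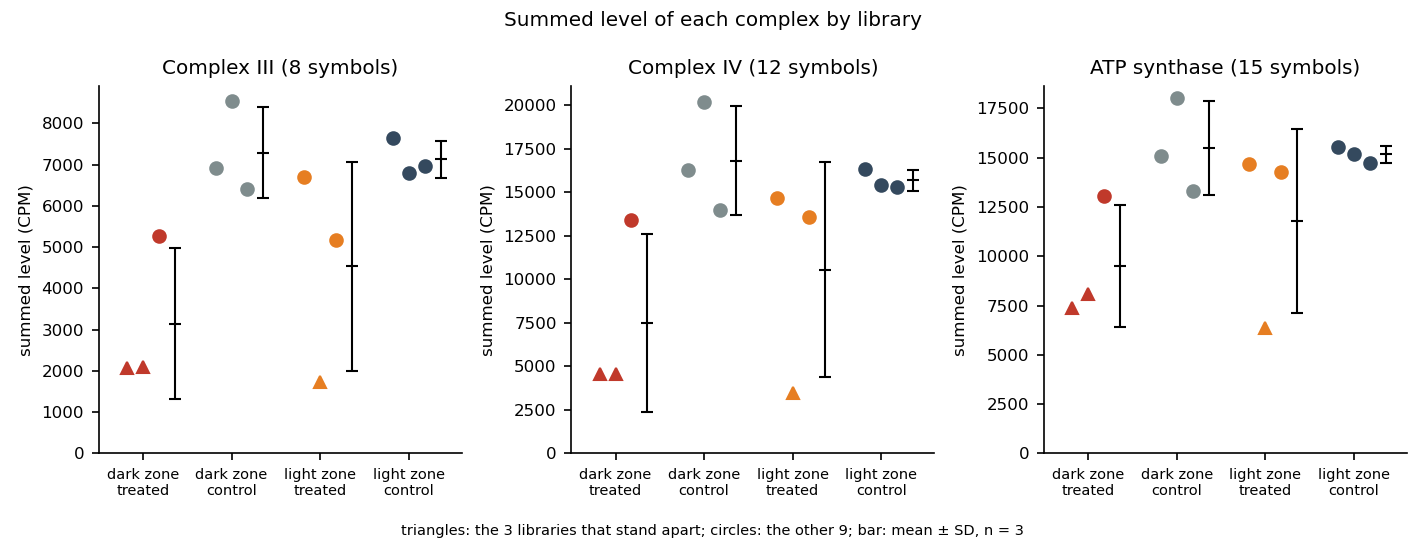
Summed level (CPM) of the members of complex III, complex IV and the ATP synthase in each of the 12 libraries, by group, with the mean ± SD of each group (n = 3) at its right. Triangles mark the 3 libraries that stand apart, which hold the lowest sum in every panel; with this TMM scaling every treated library lies below every control library of its zone, in the light zone by narrow margins for replicate 1.

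In complex III, the 5 small accessory subunits were lower in every dark zone treated library than in every dark zone control, and the 3 core members did not share a direction. Uqcrb, the ubiquinone-binding accessory protein (chr13:66900617-66905378), stood at 167, 213 and 776 CPM in the dark zone treated libraries, against 1278, 1582 and 1117 CPM in the dark zone controls. Uqcrb had 1238, 150 and 981 CPM in the light zone treated libraries, against 1674, 1234 and 1217 CPM in the light zone controls. Its dark zone groups did not overlap, with a log2 difference of -1.78 ± 0.74 (SE; adjusted p = 0.528), and its light zone groups overlapped through replicate 1. Uqcr10, a small subunit that sits beside cytochrome c1, had 349, 275.5 and 1154 CPM in the dark zone treated libraries, against 1770, 1991 and 1541 CPM in the dark zone controls. It had 1483, 258 and 1181 CPM in the light zone treated libraries, against 1946, 1450 and 1543 CPM in the light zone controls. The dark zone groups did not overlap, while in the light zone replicate 1 lay within the control range. Uqcr11, the smallest subunit of the complex, had 295, 211 and 779.9 CPM in the dark zone treated libraries, against 1257, 1280 and 1083 CPM in the dark zone controls. The level of Uqcr11 was 1158, 228 and 887.5 CPM in the light zone treated libraries, against 1298, 1216 and 1161 CPM in the light zone controls. For Uqcr11 all treated libraries were below all controls in both zones, with log2 differences of -1.49 ± 0.59 (SE; adjusted p = 0.528) in the dark zone and -0.69 ± 0.58 (SE; adjusted p = 0.801) in the light zone. Uqcrh, the hinge protein that helps cytochrome c1 meet cytochrome c, had 236, 211.5 and 938.5 CPM in the dark zone treated libraries, against 1095, 1594 and 968 CPM in the dark zone controls. It had 1031, 179 and 826 CPM in the light zone treated libraries, against 1077, 1181 and 1032 CPM in the light zone controls. Its groups did not overlap in either zone, although dark zone treated replicate 3 and light zone treated replicate 1 came close to the lowest control. Uqcrq, which contacts cytochrome b, had 267, 223 and 719.9 CPM in the dark zone treated libraries, against 837.5, 1150 and 812 CPM in the dark zone controls. Light zone levels were 853, 229 and 763.5 CPM in the light zone treated libraries, against 1006, 962 and 973 CPM in the light zone controls. Uqcrq also showed no overlap in either zone. Together the 5 small subunits summed to 1313, 1134 and 4368 CPM in the dark zone treated libraries, against 6237, 7598 and 5522 CPM in the dark zone controls, with no overlap.

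The core members of complex III are larger proteins. Uqcrc1, a core protein of the matrix side, had 361, 501 and 472 CPM in the dark zone treated libraries, against 188, 380.1 and 368 CPM in the dark zone controls. Uqcrc1 had 269, 363 and 299.7 CPM in the light zone treated libraries, against 167, 386.5 and 364 CPM in the light zone controls, and the groups overlapped in both zones. Uqcrc2, its partner core protein, had 158, 182 and 180.5 CPM in the dark zone treated libraries, against 93.6, 152 and 145 CPM in the dark zone controls. The dark zone treated libraries were all higher than their controls, with a log2 difference of 0.42 ± 0.42 (SE; adjusted p = 0.694). Uqcrc2 was at 108, 133 and 91.8 CPM in the light zone treated libraries, against 187, 72.8 and 253 CPM in the light zone controls, with overlap and a log2 difference of -0.62 ± 0.42 (SE; adjusted p = 0.744); 504 exon bases of this gene are shared with Pdzd9. Uqcrfs1, the Rieske iron-sulfur protein that takes electrons from ubiquinol, had 244, 283.5 and 248 CPM in the dark zone treated libraries, against 414, 418 and 374 CPM in the dark zone controls. All 3 dark zone treated libraries were lower, including the replicate that did not stand apart, with a log2 difference of -0.64 ± 0.44 (SE; adjusted p = 0.577). In the light zone Uqcrfs1 was at 558, 201 and 145 CPM in the light zone treated libraries, against 289, 294 and 416 CPM in the light zone controls, where the treated libraries lay on both sides of the controls. The sum of the 3 core members was 764, 966 and 900.3 CPM in the dark zone treated libraries, against 696, 949 and 888 CPM in the dark zone controls, so that it overlapped between groups where the sum of the small subunits did not.

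All 12 symbols of complex IV had a negative log2 difference in both zones with all libraries, and without the libraries that stood apart all but Cox6a1 did in both zones. Cox7b, a small subunit needed for assembly of the complex, lies at chrX:106015700-106022450 and had the smallest unadjusted p, 0.0241, among the members that were lower in the dark zone. Cox7b had 209.8, 191 and 786 CPM in the dark zone treated libraries, against 1394, 1492 and 1169 CPM in the dark zone controls. Its levels were 1053, 176 and 934 CPM in the light zone treated libraries, against 1464, 1321 and 1134 CPM in the light zone controls. Both zones showed no overlap, and the log2 differences were -1.77 ± 0.67 (SE; adjusted p = 0.528) in the dark zone and -0.86 ± 0.66 (SE; adjusted p = 0.786) in the light zone. Cox7a2, the widely expressed form of subunit 7a, had 167, 195.5 and 810.5 CPM in the dark zone treated libraries, against 1348, 1653 and 1176 CPM in the dark zone controls. It was at 1099, 117 and 898 CPM in the light zone treated libraries, against 1415, 1091 and 1246 CPM in the light zone controls. Its dark zone difference of -1.83 ± 0.77 (SE; adjusted p = 0.528) was the most negative of the 38 members, and its light zone groups overlapped. Cox7c, another small transmembrane subunit, had 226, 263 and 1050 CPM in the dark zone treated libraries, against 1360, 1820 and 1205 CPM in the dark zone controls. The level of Cox7c was 1248, 174 and 1125 CPM in the light zone treated libraries, against 1565, 1534 and 1421 CPM in the light zone controls, and its groups did not overlap in either zone. Cox6c, a transmembrane subunit, had 389, 401 and 1755 CPM in the dark zone treated libraries, against 2532, 2819 and 2212 CPM in the dark zone controls. It was at 1985, 289 and 1658 CPM in the light zone treated libraries, against 2481, 2027 and 2046 CPM in the light zone controls. Cox6c had no overlap in either zone; it shares 250 exon bases with Vps13b.

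The other well-expressed members of complex IV were also lowest in the libraries that stood apart. Cox6a1, the form of subunit 6a outside heart and muscle, had 739, 834 and 2570 CPM in the dark zone treated libraries, against 2076, 2580 and 1918 CPM in the dark zone controls. It was at 2020, 561 and 2144 CPM in the light zone treated libraries, against 1953, 1811 and 1780 CPM in the light zone controls. Here dark zone treated replicate 3 lay within the control range, so the groups overlapped. Cox8a, the smallest subunit, had 622, 629.7 and 1804 CPM in the dark zone treated libraries, against 2000, 2691 and 1910 CPM in the dark zone controls. Light zone levels were 2003, 449 and 1945 CPM in the light zone treated libraries, against 1662, 1977 and 2433 CPM in the light zone controls, which overlapped. Cox6b1, which faces the intermembrane space and joins the monomers of the dimer, had 497, 440.4 and 1681 CPM in the dark zone treated libraries, against 2072, 2577 and 1957 CPM in the dark zone controls. It was at 1887, 393 and 1717 CPM in the light zone treated libraries, against 1960, 1707 and 2133 CPM in the light zone controls. The dark zone groups did not overlap for Cox8a and Cox6b1, and the light zone groups did. Cox4i1, the regulatory subunit that binds ATP, had 1110, 915 and 1777 CPM in the dark zone treated libraries, against 1962, 2611 and 1346 CPM in the dark zone controls. It was at 1825, 790.5 and 1756 CPM in the light zone treated libraries, against 1831, 2305 and 1714 CPM in the light zone controls. The groups overlapped in both zones, since dark zone treated replicate 3 and light zone treated replicates 1 and 3 were within the control range. Cox5a, which contacts Cox4i1, had 298.5, 395 and 599 CPM in the dark zone treated libraries, against 752, 969.8 and 454.5 CPM in the dark zone controls. Cox5a had 878, 294.5 and 734.5 CPM in the light zone treated libraries, against 982, 856 and 735 CPM in the light zone controls. Cox5b, a zinc-binding subunit on the matrix side, had 272, 268 and 578 CPM in the dark zone treated libraries, against 774, 1006 and 625 CPM in the dark zone controls. It was at 650.5, 199 and 662 CPM in the light zone treated libraries, against 1040, 769 and 631 CPM in the light zone controls. The groups of Cox5a overlapped in both zones, and those of Cox5b in the light zone but not in the dark zone. The tissue-restricted forms Cox6b2 (testis) and Cox7a1 (heart and muscle) reached at most 12.7 and 10.2 CPM in any library, and Cox6b2 was at 0 in 3 libraries. Cox6b2 averaged 0.25 ± 0.389 CPM in light zone treated and 3.32 ± 5.71 CPM in light zone control libraries (SD, n = 3 each). Its light zone log2 difference of -3.64 ± 2.38 (SE; adjusted p = 0.741) rested on light zone control replicate 3, without which it was 2.92.

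In the ATP synthase, the 2 large subunits of the F1 head were higher in the libraries that stood apart, while most other subunits were lower there. Atp5b, the catalytic beta subunit (chr10:128083273-128090391), had 1810, 2100 and 644 CPM in the dark zone treated libraries, against 540.4, 429.7 and 526 CPM in the dark zone controls. Atp5b had 391, 1695 and 673 CPM in the light zone treated libraries, against 511, 386 and 449 CPM in the light zone controls. The dark zone treated libraries were all higher than their controls, the third by little; in the light zone replicate 2 was high, replicate 3 was above the controls and replicate 1 was within their range. The log2 differences were 1.61 ± 0.55 (SE; adjusted p = 0.528) in the dark zone and 1.04 ± 0.54 (SE; adjusted p = 0.689) in the light zone. Atp5a1, the alpha subunit that shares the nucleotide-binding sites with beta, had 1264, 1505 and 415 CPM in the dark zone treated libraries, against 476, 272 and 426 CPM in the dark zone controls. It was at 486, 1086 and 340.1 CPM in the light zone treated libraries, against 217, 373 and 416 CPM in the light zone controls. The groups of Atp5a1 overlapped in both zones, since replicate 3 of each treated group lay within the control range; its dark zone log2 difference was 1.44 ± 0.56 (SE; adjusted p = 0.528). Atp5d, the delta subunit of the central stalk, had 174, 192.5 and 134 CPM in the dark zone treated libraries, against 128, 111 and 56.5 CPM in the dark zone controls. The level of Atp5d was 147, 166 and 89.1 CPM in the light zone treated libraries, against 33.3, 166 and 143 CPM in the light zone controls. In the dark zone all treated libraries were higher, with a log2 difference of 0.76 ± 0.55 (SE; adjusted p = 0.593), and in the light zone the groups overlapped. As a share of the summed CPM of the synthase, not corrected for transcript length, alpha and beta together made up 41.7, 44.7 and 8.1% in the dark zone treated libraries, against 6.75, 3.89 and 7.15% in the dark zone controls. The shares were 5.98, 43.6 and 7.11% in the light zone treated libraries, against 4.68, 4.99 and 5.87% in the light zone controls. The 3 libraries that stood apart thus had shares of 41.7% to 44.7%, and the other 9 had shares of 3.89% to 8.10%.

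**Figure D2:**
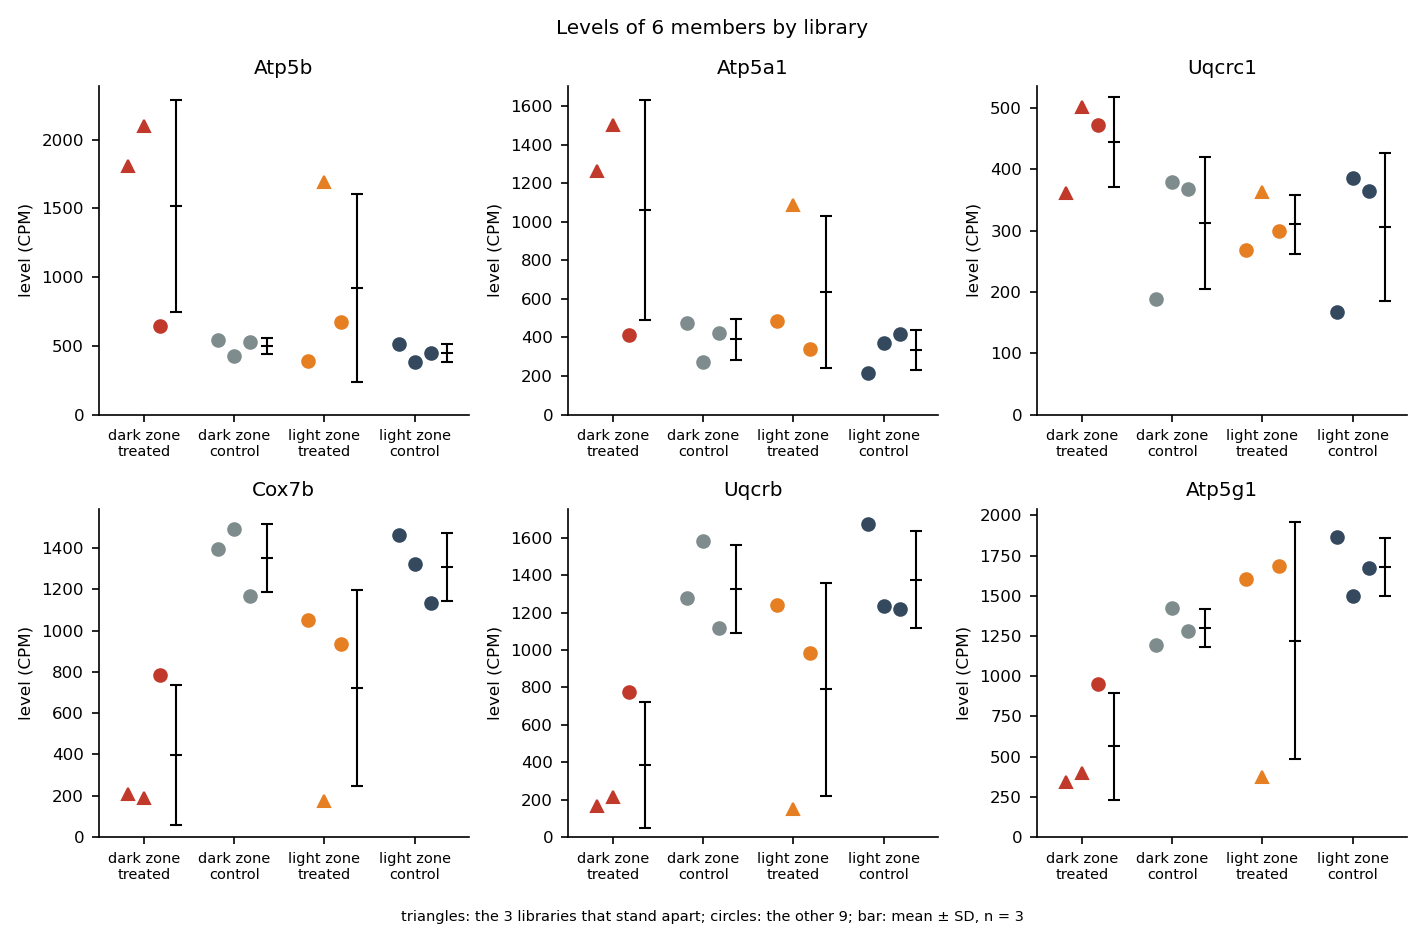
Levels (CPM) of 6 members in each of the 12 libraries, by group, with the mean ± SD of each group (n = 3) at its right. Triangles mark the 3 libraries that stand apart: they are the highest for Atp5b and Atp5a1, the lowest for Cox7b, Uqcrb and Atp5g1, and overlap the other libraries for Uqcrc1.

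Gamma and epsilon, unlike delta, were lowest in the libraries that stood apart. Atp5c1, the gamma subunit that turns inside the head, had 350, 423 and 1014 CPM in the dark zone treated libraries, against 992, 1211 and 909 CPM in the dark zone controls. It was at 1055, 334 and 1077 CPM in the light zone treated libraries, against 767, 1033 and 1033 CPM in the light zone controls. Dark zone treated replicate 3 lay within the control range, and light zone treated replicates 1 and 3 lay just above it. Atp5e, whose sequence is given above, had 315, 278 and 647 CPM in the dark zone treated libraries, against 804, 1049 and 728.5 CPM in the dark zone controls. Light zone levels were 806, 244 and 661 CPM in the light zone treated libraries, against 994, 1081 and 723.5 CPM in the light zone controls. All dark zone treated libraries were lower for Atp5e, with a log2 difference of -1.06 ± 0.47 (SE; adjusted p = 0.528), and the light zone groups overlapped.

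The 3 genes of subunit c were all lowest in the libraries that stood apart. Atp5g1 had 344, 400 and 949 CPM in the dark zone treated libraries, against 1193, 1426 and 1282 CPM in the dark zone controls. It was at 1605, 372 and 1684 CPM in the light zone treated libraries, against 1864, 1500 and 1672 CPM in the light zone controls. The dark zone groups did not overlap, with a log2 difference of -1.20 ± 0.54 (SE; adjusted p = 0.528), and in the light zone replicates 1 and 3 lay within the control range. Atp5g2 had 303, 378 and 608 CPM in the dark zone treated libraries, against 844, 842 and 596 CPM in the dark zone controls. It was at 802, 260.4 and 683 CPM in the light zone treated libraries, against 641, 845 and 657 CPM in the light zone controls. Outside the libraries that stood apart, every treated value of Atp5g2 lay within the control range of its zone. Atp5g3 had 624, 799.9 and 1231 CPM in the dark zone treated libraries, against 1141, 1371 and 829.9 CPM in the dark zone controls. Atp5g3 had 1238, 523 and 1283 CPM in the light zone treated libraries, against 1162, 1205 and 1147 CPM in the light zone controls. Atp5g2 and Atp5g3 overlapped in both zones, and the dark zone difference of Atp5g3, -0.33 ± 0.39 (SE; adjusted p = 0.738), was the least negative among the 12 subunits of the synthase that were lower.

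The peripheral stalk, which holds the head still against the turning ring, and the small membrane subunits were far lower in the libraries that stood apart than in all others. Atp5j, the stalk subunit F6, had 464, 428 and 2416 CPM in the dark zone treated libraries, against 2813, 3412 and 2489 CPM in the dark zone controls. It was at 2193, 344 and 2492 CPM in the light zone treated libraries, against 2661, 2122 and 2466 CPM in the light zone controls. Atp5o, the stalk subunit that confers oligomycin sensitivity, had 311, 204 and 648 CPM in the dark zone treated libraries, against 777, 1180 and 732 CPM in the dark zone controls. The level of Atp5o was 919.8, 262 and 898 CPM in the light zone treated libraries, against 944, 855 and 972 CPM in the light zone controls. For Atp5j and Atp5o the dark zone groups did not overlap, and in the light zone replicates 1 and 3 lay within the control range. Atp5f1, subunit b, had 416, 499 and 1062 CPM in the dark zone treated libraries, against 981, 1391 and 928 CPM in the dark zone controls. It was at 1177, 363 and 1135 CPM in the light zone treated libraries, against 864, 1166 and 1121 CPM in the light zone controls. Atp5h, subunit d, had 285, 219.9 and 787 CPM in the dark zone treated libraries, against 937, 1083 and 600.2 CPM in the dark zone controls. Light zone levels were 790.4, 229.9 and 618 CPM in the light zone treated libraries, against 1051, 984 and 706 CPM in the light zone controls. The groups of Atp5f1 and Atp5h overlapped in both zones; Atp5j shares 397 exon bases with Gabpa and Atp5f1 337 with Wdr77. Atp5l, subunit g, had 335, 296 and 1415 CPM in the dark zone treated libraries, against 1980, 2216 and 1769 CPM in the dark zone controls. It was at 1753, 231 and 1469 CPM in the light zone treated libraries, against 2018, 1998 and 1752 CPM in the light zone controls. Atp5j2, subunit f, had 299, 276 and 875 CPM in the dark zone treated libraries, against 1136, 1665 and 1188 CPM in the dark zone controls. Atp5j2 had 1062, 218.5 and 938 CPM in the light zone treated libraries, against 1448, 1200 and 1182 CPM in the light zone controls. All dark zone treated libraries were below all controls for both genes, and the same held in the light zone for Atp5j2. Atp5k, subunit e, had 82.6, 65.9 and 232.5 CPM in the dark zone treated libraries, against 325, 391 and 261 CPM in the dark zone controls. It was at 245, 55.4 and 209.6 CPM in the light zone treated libraries, against 383, 286 and 293 CPM in the light zone controls. Subunits e and g link the synthase into dimers. Atp5k had no overlap in either zone, with log2 differences of -1.36 ± 0.59 (SE; adjusted p = 0.528) in the dark zone and -0.91 ± 0.58 (SE; adjusted p = 0.734) in the light zone.

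The 3 symbols that are not subunits showed no common direction. Cox7a2l, which helps join complexes III and IV into supercomplexes, had 265, 175 and 213.5 CPM in the dark zone treated libraries, against 549.6, 371 and 221 CPM in the dark zone controls. The level of Cox7a2l was 222, 157 and 371 CPM in the light zone treated libraries, against 193, 145 and 299 CPM in the light zone controls. The groups overlapped in both zones, and the light zone log2 difference of 0.24 ± 0.44 (SE; adjusted p = 0.91) was -0.16 without light zone treated replicate 3. Atp5s, a coupling factor, and Atp5sl were low, at 0.34 to 84.0 CPM and 0.15 to 33.6 CPM over the 12 libraries, with single libraries close to the floor. The groups of both overlapped in both zones.

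No member passed the adjusted threshold of 0.05 of edgeR's quasi-likelihood test in any comparison, and neither did any other of the 12081 tested genes (0.0%). In the dark zone, 32 of 38 members had a lower level in treated than in control libraries, where 47.8% of all tested genes did, with a median log2 difference of -1.11 over the members and 0.06 over all genes. Without dark zone treated replicate 3, the library that did not stand apart, the members' median was -1.68. An unadjusted p under 0.05 was reached there by 14 members, where 8.9% of all genes reached it. The treated and control groups did not overlap for 20 members that were lower, against 11.2% of all genes, and for 3 that were higher, against 12.5%. By complex, 6 of 8 members of complex III were lower, with a median of -1.31, 12 of 12 of complex IV, with a median of -1.22, and 12 of 15 of the ATP synthase, with a median of -1.02. DESeq2 called 0 members and 72 genes (0.596%). Limma-voom with quality weights called 25 members as lower, against 15.6% of all genes, and 2 as higher (Atp5a1 and Atp5b), against 9.86%. That fit gave weights of 4.70 and 5.43 to dark zone treated replicates 1 and 2 and of 0.237 to replicate 3, and its log2 difference was -2.65 for Cox7b (adjusted p = 0.00148) and 1.91 for Atp5b (adjusted p = 0.00198).

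In the light zone, 32 of 38 members were also lower in treated libraries, against 45.9% of all genes, with a median log2 difference of -0.58 over the members and 0.10 over all genes. The members' median was -0.90 without light zone treated replicate 1 and -0.17 without light zone treated replicate 2. No member reached an unadjusted p under 0.05 by edgeR, where 7.36% of all genes did, and DESeq2 called 0 members and 216 genes (1.79%). Limma-voom called 0 genes. The groups did not overlap for 8 members, all lower, against 5.49% of all genes, and for 0 members that were higher, against 5.82%. These 8 were Uqcr11, Uqcrh, Uqcrq, Cox6c, Cox7b, Cox7c, Atp5j2 and Atp5k, and all of them were also without overlap and lower in the dark zone. The medians were -0.68 in complex III, -0.71 in complex IV and -0.41 in the ATP synthase. The difference between the effects of the zones had a median of 0.53 over the members, with 8 of 38 below 0, against 44.5% of all genes below 0 and a median of 0.15. The members' median for it was 0.23 without light zone treated replicate 1 and 1.22 without dark zone treated replicate 3. Below 0 were 11 members without the libraries that stood apart (46.0% of all genes), 24 with a term for them in the model (48.9%) and 10 by library totals alone (50.3%). No member was called for it by edgeR, by DESeq2, which called 16 genes (0.132%), or by limma-voom, which called 0 genes, and 0 members reached an unadjusted p under 0.05 in edgeR, where 2.28% of all genes did, and likewise 0 without the libraries that stood apart, where 4.63% did.

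**Figure D3:**
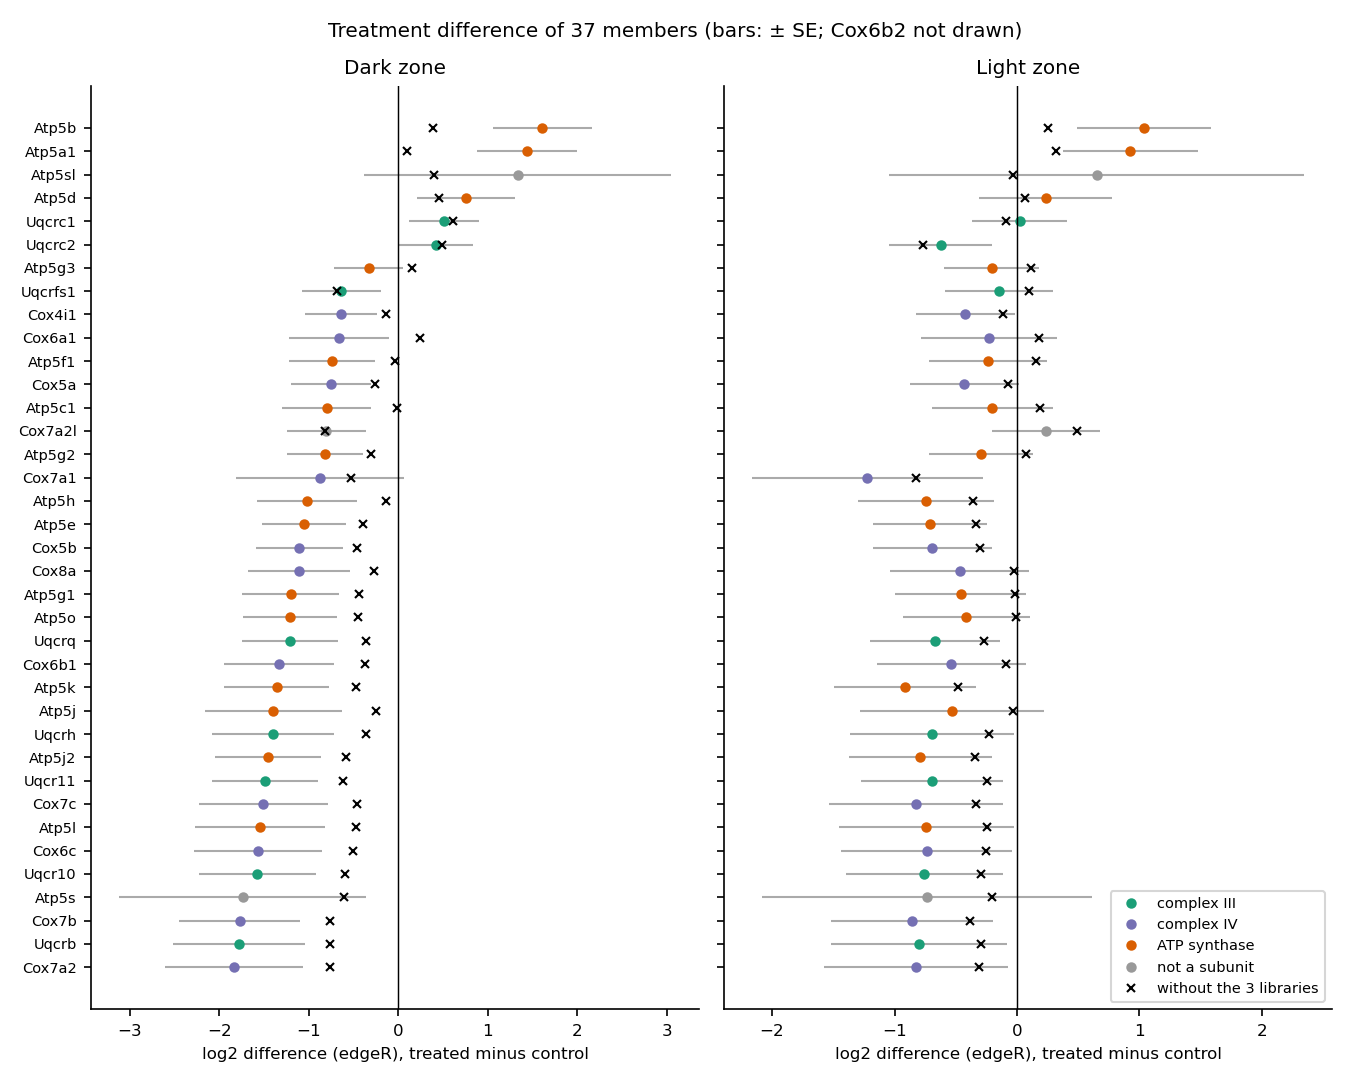
Treated minus control log2 difference (edgeR) of each member in the dark zone, left, and the light zone, right, with bars of ± SE, ordered by the dark zone value; Cox6b2 is not drawn because its level is near 0. Crosses give the difference without the 3 libraries that stand apart and lie nearer to 0 than the coloured points for most members, among them Cox7b (-1.77 with and -0.77 without them in the dark zone).

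The way the counts were scaled moved all genes together. With library totals alone, the median of all genes was 0.51 in the dark zone, against 0.06 with TMM factors, and 0.39 in the light zone, against 0.10. The members stayed below that shift, with medians of -0.75 and -0.45 and 31 of 38 below 0 in each zone, where 34.3% and 36.0% of all genes were below 0. Atp5g3 in the dark zone and Uqcrfs1 in the light zone changed sign under library totals, at 0.07 and 0.05.

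Between the 3 libraries that stood apart and the other 9, the ranges of 27 of 38 members did not meet, with the 3 libraries lower (16.7% of all genes), and those of 3 members did not meet with the 3 libraries higher (13.7% of all genes). The 27 comprised 5 small subunits of complex III, 10 of 12 members of complex IV and 12 of 15 of the ATP synthase, and the 3 were Atp5a1, Atp5b and, by a narrow margin, Atp5d. The remaining 8 were the 3 core members of complex III, the low isoforms Cox6b2 and Cox7a1, and the 3 symbols that are not subunits.

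Transcript size went with the difference. Members were classed by the length of their principal annotated transcript, the coding transcript ranked best by APPRIS. Ties in that rank went to the longest coding sequence and then to the longest transcript. Classes were short (under 600 nt, 12 members), middle (600 nt to under 1000 nt, 12 members) and long (1000 nt and more, 14 members). In the dark zone 12 of 12 short members were lower, with a median log2 difference of -1.45, 12 of 12 middle members, with a median of -1.16, and 8 of 14 long members, with a median of -0.69. Over all tested genes the medians were -1.03 for 207 short, -0.81 for 713 middle and 0.16 for 11053 long genes, so the order of the classes was the same over all tested genes. Of all tested genes, 165 of 207 short, 576 of 713 middle and 4978 of 11053 long ones were lower. Most short and middle genes were thus lower whether or not they were members. In the light zone the medians of the members were -0.75, -0.53 and -0.17, and those of all genes -0.57, -0.44 and 0.18. Across the 38 members, Spearman's rho between coding length and log2 difference was 0.694 in the dark zone and 0.711 in the light zone, and it was 0.507 and 0.632 with the length of the principal transcript. Over all genes it was 0.188 and 0.14 with coding length, and 0.141 and 0.0936 with the principal transcript. The members share their libraries, and the values are a description. Some small subunits were classed as long through untranslated sequence of the principal transcript. Cox7b has a transcript of 1001 nt and a coding length of 240 nt, Uqcrq has 1521 and 246 nt, and Atp5g1 has 4715 and 408 nt. The shortest annotated coding transcripts of Uqcrq and Atp5g1 have 405 and 596 nt, and which transcript the cells held was not measured. Members with a coding length of 1359 nt and more were Uqcrc1, Uqcrc2, Atp5b and Atp5a1, and all 4 had a positive dark zone difference, as did the shorter Atp5sl, with 771 nt, and Atp5d, with 504 nt. Atp5c1, with 894 nt, and Uqcrfs1, with 822 nt, had dark zone differences of -0.80 and -0.64. Light zone differences were -0.62 for Uqcrc2 and 0.02 for Uqcrc1.

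**Figure D4:**
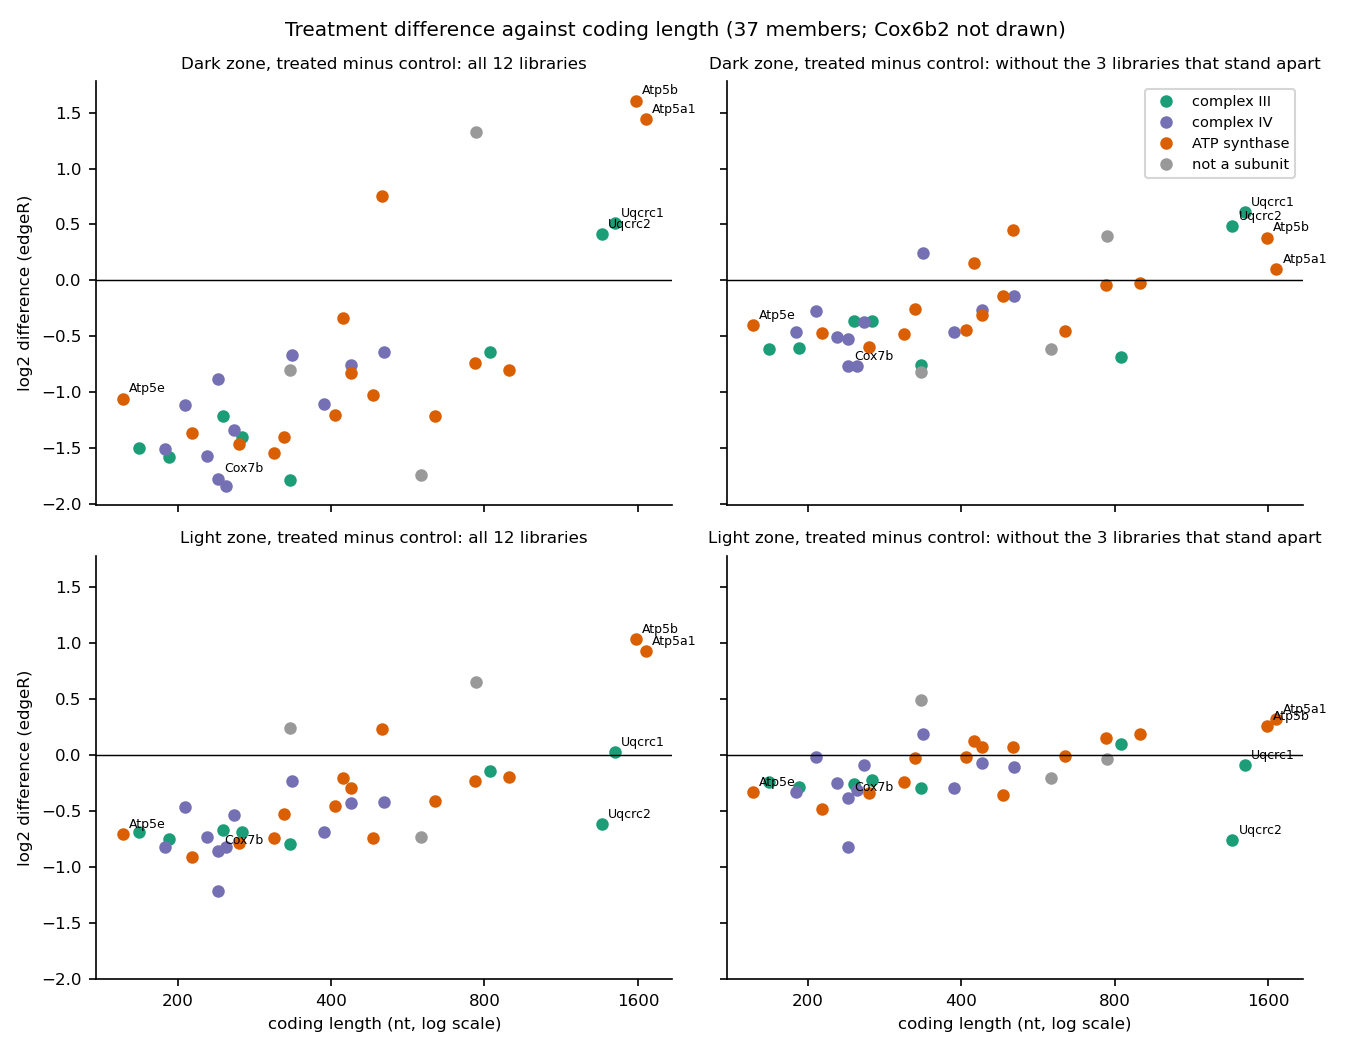
Treated minus control log2 difference (edgeR) against coding length (nt, log axis) in the dark zone, top, and the light zone, bottom, with all 12 libraries, left, and without the 3 that stand apart, right; each point is a member, coloured by complex, and Cox6b2 is not drawn. Most short coding sequences lie below 0 and Atp5b and Atp5a1 lie highest with all libraries, and the points draw together near 0 without the 3 libraries.

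Within single libraries the same contrast was measured as the mean log2 CPM of the short members minus that of the long members. It was -0.77, -0.94 and 0.29 in the dark zone treated libraries, against 1.18, 0.56 and 0.67 in the dark zone controls. It was 0.02, -1.15 and 0.26 in the light zone treated libraries, against 0.93, 0.45 and 0.54 in the light zone controls. The 3 libraries that stood apart were the only libraries below 0, and the remaining treated libraries were above 0 and below all controls of their zone. The last point rested in the light zone on 4 members near 0 CPM in single libraries (Cox6b2, Cox7a1, Atp5s and Atp5sl). Without these 4, a choice made after seeing the data, the difference was -0.31, -0.51 and 1.06 in the dark zone treated libraries, against 1.36, 1.54 and 1.32 in the dark zone controls. It was then 1.23, -0.53 and 1.18 in the light zone treated libraries, against 1.78, 1.47 and 1.12 in the light zone controls, so that light zone treated replicates 1 and 3 lay within the control range. Over all tested genes, short minus long was 0.04 to 0.53 in the 3 libraries and 1.83 to 2.54 in the other 9, with dark zone treated replicate 3 at 2.00 against controls at 1.84 to 2.54, and light zone treated replicates 1 and 3 at 2.04 and 1.83 against controls at 1.93 to 2.39. In the group means, the index of the members was -0.47 ± 0.67 in dark zone treated and 0.80 ± 0.33 in dark zone control libraries (SD, n = 3 each).

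**Figure D5:**
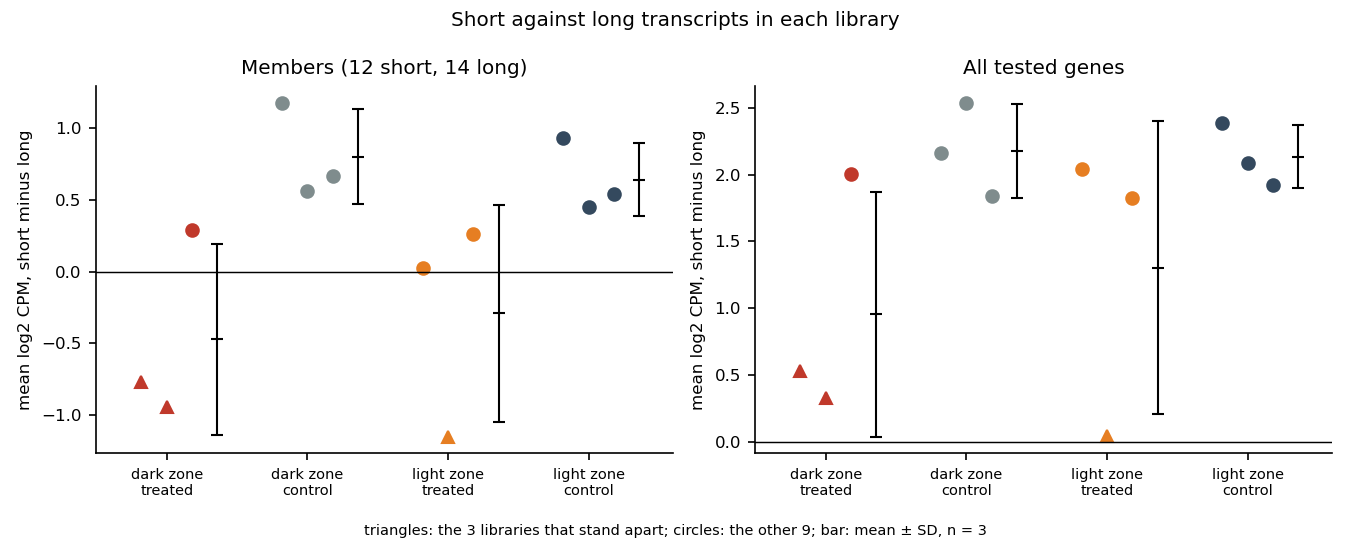
Mean log2 CPM of short minus long transcripts in each library, for the members, left, and for all tested genes, right, by group, with the mean ± SD of each group (n = 3) at its right. Triangles mark the 3 libraries that stand apart, at -0.77, -0.94 and -1.15 for the members; the other treated libraries lie above 0. Without 4 members near 0 CPM in single libraries, which are included here, light zone treated replicates 1 and 3 lie within the control range.

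Without the 3 libraries the differences kept their sign for most members and shrank. In the dark zone, where 1 treated library then stood against 3 controls and is assumed to vary like the other groups, 30 of 38 members were lower, against 54.4% of all genes, with a median log2 difference of -0.39, against -0.11 over all genes. The medians were -0.48 in complex III, -0.46 in complex IV and -0.25 in the ATP synthase. Cox7b was at -0.77 and Uqcrb at -0.76, while Atp5b was at 0.38 and Atp5a1 at 0.10. The sign changed to positive for Cox6a1, at 0.24, and Atp5g3, at 0.16. In the light zone 28 of 38 were lower, against 51.6% of all genes, with a median of -0.16, against -0.04, and Cox7b was at -0.38 and Atp5b at 0.26. There the sign changed to positive for Uqcrfs1, Cox6a1, Atp5c1, Atp5f1, Atp5g2 and Atp5g3, at 0.07 to 0.19, and to negative for Uqcrc1, at -0.09, and Atp5sl, at -0.04. By edgeR without the 3 libraries, 0 genes were called in each zone (0.0%), with an unadjusted p under 0.05 for 6 members in the dark zone, against 3.98% of all genes, and for 0 in the light zone, against 7.4%. By DESeq2 0 members were called, among 217 genes in the dark zone (1.81%) and 432 in the light zone (3.59%). Dark zone treated replicate 3 lay below the range of its controls for 21 of 38 members, where 24.4% of all genes did; light zone treated replicate 1 did so for 8 of 38, where 25.5% of all genes did, and light zone treated replicate 3 for 19 of 38, where 28.3% did. Light zone treated replicate 1 was thus near the share of all genes, and the other pair were above it. For complex III the counts were 6 of 8, 3 of 8 and 6 of 8, for complex IV 7 of 12, 3 of 12 and 6 of 12, and for the ATP synthase 7 of 15, 2 of 15 and 5 of 15. Across the members, rho between coding length and difference was 0.581 in the dark zone and 0.555 in the light zone without the 3 libraries. Over all genes it was 0.00678 and 0.0135. With the length of the principal transcript, rho was 0.417 and 0.465 across the members and -0.00275 and -0.0105 over all genes. A term for the 3 libraries in the model gave medians of -0.25 and -0.24, with 28 and 30 of 38 members below 0, against 54.3% and 52.1% of all genes.

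No member was called between the zones of control mice. Between light zone and dark zone control libraries the median log2 difference was -0.04, with 22 of 38 below 0, against 49.8% of all genes. By edgeR 0 genes were called, and 0 members and 4.93% of all genes reached an unadjusted p under 0.05; DESeq2 called 0 members and 113 genes (0.935%), and limma-voom called 0 genes. The groups did not overlap for 1 member that was higher in the light zone, against 4.47% of all genes, and for 0 that were lower, against 5.6%. That member was Atp5g1, at 1864, 1500 and 1672 CPM in light zone control libraries, against 1193, 1426 and 1282 CPM in dark zone control libraries, with a log2 difference of 0.37 ± 0.54 (SE; adjusted p = 1). Atp5g1 had 1605, 372 and 1684 CPM in light zone treated libraries, against 344, 400 and 949 CPM in dark zone treated libraries, where light zone replicates 1 and 3 were high and the groups overlapped through the libraries that stood apart. No member was called there by edgeR, by DESeq2, which called 1 gene (0.00828%), or by limma-voom, which called 0, and 0 members reached an unadjusted p under 0.05 by edgeR, against 2.06% of all genes. Without the 3 libraries, Atp5g1 was the only member that DESeq2 called between the treated zones, among 365 genes (3.04%), with a log2 difference of 0.84 (adjusted p = 0.00486), and edgeR gave 0.81 (adjusted p = 0.759). This leaves 1 dark zone library on the lower side, and Atp5g1 is one of 9 members with values midway between whole counts in some libraries. With all libraries, 7 of 38 members were below 0 between the treated zones, against 47.4% of all genes, and the median was 0.46, against 0.05; with a term for the 3 libraries, 29 were below 0 and the median was -0.14. With all libraries but 1 the median was 0.20 without light zone treated replicate 1 and 1.10 without dark zone treated replicate 3. The groups did not overlap for 2 members that were lower in light zone treated libraries (Uqcrc2 and Cox6b2), against 3.55% of all genes, and for 0 that were higher, against 2.24%.

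Partners of the complexes were measured beside the members. Of 33 assembly factors and partners of complexes III and IV, 24 were lower in dark zone treated libraries, against 47.8% of all genes, with a median log2 difference of -0.94, and 22 in light zone treated libraries, against 45.9%, with a median of -0.52. None was called by edgeR or DESeq2, and 4 in the dark zone and 0 in the light zone had an unadjusted p under 0.05 by edgeR, where 8.9% and 7.36% of all genes did. Cycs, the small electron carrier cytochrome c, had 356, 473 and 1549 CPM in dark zone treated libraries, against 2019, 2111 and 1848 CPM in dark zone control libraries. Cyc1, the larger cytochrome c1 of complex III, had 279.5, 327 and 197 CPM in dark zone treated libraries, against 214, 146 and 217 CPM in dark zone control libraries. Cycs was thus lower in all dark zone treated libraries, and Cyc1 was higher than all controls in replicates 1 and 2. Ndufa4, now counted as a subunit of complex IV, was at 232 to 349.7 CPM in the 3 libraries that stood apart and at 1361 to 2215 CPM in the other 9. Of 12 partners of the ATP synthase, 7 were lower in the dark zone, with a median of -0.19, and 8 in the light zone, with a median of -0.10, again with 0 called by either tool and with 3 and 0 at an unadjusted p under 0.05 by edgeR; the shares over all genes are those just given. Usmg5 and Atpif1, a small membrane subunit and the inhibitor of ATP hydrolysis, reached 98.7 to 133 CPM and 133 to 203 CPM in the 3 libraries, against 528 to 1520 CPM and 593 to 1213 CPM in the other 9. Slc25a3, the phosphate carrier, had overlapping ranges, at 345 to 401 CPM in the 3 libraries and 243 to 556 CPM in the other 9. So did Slc25a4, an ADP/ATP carrier, at 258 to 279 CPM and 215.5 to 497 CPM. Slc25a5, another ADP/ATP carrier, was lower in all 3 libraries, at 908 to 1263 CPM, against 1784 to 3819 CPM in the other 9. Of these 12 partners, 4 were lower in all 3 libraries and 0 were higher, where 16.7% and 13.7% of all genes were. Of 13 regulators of respiratory genes, 4 were lower in the dark zone, against 47.8% of all genes, with a median of 0.35. In the light zone 5 were, against 45.9%, with a median of 0.39. None of the regulators was called by edgeR. In each zone 1 had an unadjusted p under 0.05 by edgeR, near the shares of all genes, 8.9% and 7.36%. DESeq2 called Polrmt, the mitochondrial RNA polymerase, in the light zone, where it called 1.79% of all genes. Polrmt had 40.4, 16.1 and 0.62 CPM in light zone treated libraries, against 1.90, 1.03 and 2.59 CPM in light zone control libraries. Replicate 3 thus lay below all controls, and the edgeR log2 difference was 3.37 ± 1.13 (SE; adjusted p = 0.674).

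Promoters of the members were searched for 3 motifs of factors known to act on respiratory genes. Whether these factors had a part in the levels above was not tested. RefSeq windows of 250 bases before to 50 after the gene start (GRCm38.p6) were found for 32 of the 38 members, and both strands were read. CCGGAAG, the core of sites for ETS factors such as GABP, was found in 10 of 32 members (31.2%), against 9.93% of 27025 genes with a window and 20.8% of 9389 tested genes. The palindromic site of NRF1, whose 10 letters are the longer run of capitals in the windows below, was found in 4 of 32 (12.5%), against 1.07% and 2.40%. AAGATGG, the core of YY1 sites, was found in 5 of 32 (15.6%), against 7.28% and 8.69%. The motifs do not overlap each other in the windows shown, and a match is a description of letters and no evidence of binding. Atp5k and Cox6a1, both on the minus strand of chromosome 5, hold an NRF1 and an ETS motif each, in capitals in their windows, which span chr5:108434350-108434649 and chr5:115348909-115349208.
Atp5k: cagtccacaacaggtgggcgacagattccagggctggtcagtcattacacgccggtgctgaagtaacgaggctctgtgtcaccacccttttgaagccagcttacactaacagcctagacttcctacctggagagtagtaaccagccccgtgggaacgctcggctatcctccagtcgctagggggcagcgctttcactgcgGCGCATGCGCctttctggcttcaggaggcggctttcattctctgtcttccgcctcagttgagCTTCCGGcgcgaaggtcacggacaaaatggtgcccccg
Cox6a1: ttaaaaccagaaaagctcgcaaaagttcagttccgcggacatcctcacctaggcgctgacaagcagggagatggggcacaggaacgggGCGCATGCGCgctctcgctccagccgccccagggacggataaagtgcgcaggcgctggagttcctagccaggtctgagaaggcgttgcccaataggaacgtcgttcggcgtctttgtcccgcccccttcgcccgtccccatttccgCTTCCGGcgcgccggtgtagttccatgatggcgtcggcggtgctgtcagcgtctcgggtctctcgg
The dark zone differences of these genes were -1.36 ± 0.59 (SE; adjusted p = 0.528) for Atp5k and -0.67 ± 0.56 (SE; adjusted p = 0.628) for Cox6a1.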

How the data were processed

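The authors sorted the cells and made cDNA libraries with the SMART-Seq v4 Ultra and Nextera XT kits, per the labels' protocols; these kits are known not to mark strand, and BWA and mm10 are named in the submitters' processing notes. The sources used here name no counting tool. The deposited values are expected counts per gene symbol: most are whole and some lie midway between whole numbers, which were rounded up, and blanks were read as 0. Genes passed filterByExpr (minimum count 10, total 15), which left 12081 of 12212. The test was edgeR 4.0.16 (R 4.3.3) with TMM factors and robust quasi-likelihood fits over all 12 libraries, Benjamini-Hochberg adjusted over all tested genes at 0.05. It was also run on simulated counts, in which no libraries were made to stand apart, so that run does not bear on the 3 that did here. Limma 3.58.1 (voom with quality weights), DESeq2 1.42.0, fits without the 3 libraries that stand apart or with a term for them, library totals, other size classes, a replicate block and leaving out each library were alternatives. Without strand, reads of overlapping genes cannot be told apart. Lengths, coordinates and coding sequences are from GENCODE M21, promoters from RefSeq.

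The members and lists were chosen with earlier results of these data known. Values in each library are printed for a set of core members, the members with the highest mean CPM of each complex, the member with the smallest unadjusted p in each direction and comparison, and members that any tool called; others are given by mean, range or count. Replicate numbers were not used to pair the libraries in the main fit, since the labels do not say whether they mark the same mouse.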

Additional observations from a re-analysis of the deposited data

How the results depend on the processing

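The counts of called genes depended most on the tool. With edgeR 0 genes were called under every scaling, filter, model term and left-out library that was run, while DESeq2 called 72 in the dark zone, 216 in the light zone, 16 for the difference of effects, 113 between control zones and 1 between treated zones, with 0 members. Limma-voom with quality weights called 3073 genes and 27 members in the dark zone and 0 elsewhere. DESeq2 without the 3 libraries that stand apart, an alternative chosen after seeing the data, called 217, 432, 230, 116 and 365 genes in the same order, and 1 member between treated zones. The dark zone median of the members was -0.39 without the 3 libraries, -0.41 by DESeq2 without them and -0.25 with a term for them. The dark zone difference of short minus long members was -1.28 and became -0.51 without the 3 libraries; it was -1.93 with classes by coding length, also chosen after seeing the data. The causes were not tested.

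Over all members, signs changed in the dark zone for Cox6a1 (0.24) and Atp5g3 (0.16) without the 3 libraries and for Atp5c1 (0.0622), Atp5f1 (0.11), Cox6a1 (0.29) and Atp5g3 (0.31) with the term; Cox6a1 was 0.22 by DESeq2 without them. Of the light zone signs 8 changed without the 3 libraries and 6 with the term, at -0.09 to 0.19. Between treated zones 5 changed without them, among them Atp5a1 (0.00975, and 0.0431 by DESeq2), and 22 with the term, at -0.40 to -0.01. For the difference of effects 5 and 18 changed, and between control zones 0. By library totals 1, 1, 2, 2 and 6 changed in the dark zone, the light zone, the difference of effects, control zones and treated zones, the dark zone one being Atp5g3 (0.07). With 1 library left out, medians ranged over -1.68 (without dark zone treated replicate 3) to -0.89 in the dark zone, -0.90 (without light zone treated replicate 1) to -0.17 (without light zone treated replicate 2) in the light zone, 0.23 to 1.22 for the difference of effects, -0.13 to 0.11 between control zones and 0.20 to 1.10 between treated zones. Cox6b2 ranged over -6.68 to 2.92 and Cox7a2l over -0.16 to 0.57 in the light zone, and Uqcrc2 over -0.0019 to 0.76 and Cox5a over -0.0047 to 0.51 between control zones.

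Same-numbered libraries deviated together with r over 0.1 in 3 of 6 pairs. The highest r, 0.56, joined different numbers, dark zone treated replicate 1 and light zone treated replicate 2, which both stood apart. The check therefore cannot decide whether the numbers mark pairs, and the main fit did not use them. With a replicate block the medians were -1.17 in the dark zone, -0.64 in the light zone, 0.59 for the difference of effects, -0.08 between control zones and 0.49 between treated zones, with 0 genes called. Depth was not limiting for most members, which lay far above the floor of 3 counts; the low members Cox6b2, Cox7a1, Atp5s and Atp5sl had single libraries near or at it.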
